A study of Mus musculus with 12 samples.

Results

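The 10 genes described here encode the proteins that release, take back and expel calcium in the beating cardiomyocyte: Ryr2, Casq2, Trdn, Asph, Hrc and Jph2 on the release side, Atp2a2, Pln and Sln for uptake, and Slc8a1 for extrusion. The rule names the genes and uses no measured value, although earlier results of these data were known when the set was chosen, and each gene matched 1 of the 38293 gene identifiers in the table. All 10 were among the 13964 genes with enough reads to be tested. In ventricles of mouse embryos at stage E15.5, 9 of them were measured at 89.8 CPM or more in every library, where CPM are estimated reads scaled to a common library size. One member, Hrc, fell in the Mib1 mutant, and no other member passed the test in any of the 4 comparisons made.

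RNA came from 4 genotypes, and each was sampled in 3 pools that held 4 pairs of ventricles apiece. In the Mib1 mutant the embryos combined Mib1_R530X, a premature stop allele that needs no recombination and so is present in every cell, with Mib1_flox and Tnnt2-Cre/+. Its control, called the Cre control, was Mib1_flox/+; Tnnt2-Cre/+. Both therefore carry the Cre driver and 1 flox allele. The Tnnt2 promoter drives Cre in cardiomyocytes, so that the other cell types of the mutant ventricle keep the flox allele intact beside the stop allele. The triple heterozygote carried Mib1_R530X, an Asxl3 missense allele and the Apcdd1 allele V150I on 1 copy each, without Cre, and was compared with WT embryos. The Asxl3 allele is given as M1415V in the sample labels and as M1361V in the series text, and the Apcdd1 gene is written Apcdd in the former. All embryos were compared at the same stage. The design does not hold Mib1_R530X/+ alone or Mib1_R530X/+ with Cre, so the contribution of the stop allele, of cardiomyocyte recombination and of the 2 missense alleles cannot be told apart.

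At each heartbeat a small calcium current through the cell membrane opens the ryanodine receptor Ryr2, which releases calcium stored in the sarcoplasmic reticulum. Calsequestrin 2 (Casq2) and the histidine-rich calcium binding protein (Hrc) buffer the stored calcium, triadin (Trdn) and junctin, a product of Asph, tether the buffer to the channel, and junctophilin 2 (Jph2) holds the reticulum against the cell membrane. The pump SERCA2 (Atp2a2) refills the store under the restraint of phospholamban (Pln) and sarcolipin (Sln), while the sodium-calcium exchanger NCX1 (Slc8a1) removes calcium from the cell. Fetal mouse cardiomyocytes have a sparse reticulum that matures around and after birth. MIB1 is a ubiquitin ligase that acts in ligand-presenting cells to allow Notch signalling, in which the DNA-binding protein RBPJ is the nuclear effector.

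Promoter windows were available for 6 of the 10 members in the RefSeq table for GRCm38.p6, and were read as the 250 bases upstream of each annotated start. The windows of 3 genes are shown: Hrc because it fell in the Mib1 mutant, and Ryr2 and Slc8a1 because their levels moved together from library to library. Hrc lies at chr7:45335019-45335268 on the plus strand, Ryr2 at chr13:12106946-12107195 on the minus strand and Slc8a1 at chr17:81738388-81738637 on the minus strand. Each is written 5′ to 3′ in the direction of its gene. Capitals mark E-boxes, CANNTG, which many basic helix-loop-helix factors bind, and TGGGAA, the core of the RBPJ motif; both strands were searched, and no marked match overlapped another.
Hrc: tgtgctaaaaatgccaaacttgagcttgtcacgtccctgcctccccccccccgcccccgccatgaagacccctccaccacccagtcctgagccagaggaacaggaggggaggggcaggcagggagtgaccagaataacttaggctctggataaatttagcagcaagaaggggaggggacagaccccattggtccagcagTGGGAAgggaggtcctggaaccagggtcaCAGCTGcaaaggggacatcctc
Ryr2: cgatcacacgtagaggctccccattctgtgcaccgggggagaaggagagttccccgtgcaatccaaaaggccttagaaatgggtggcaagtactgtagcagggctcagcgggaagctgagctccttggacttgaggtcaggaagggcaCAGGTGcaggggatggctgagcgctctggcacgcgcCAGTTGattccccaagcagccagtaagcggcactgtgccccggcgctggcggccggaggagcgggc
Slc8a1: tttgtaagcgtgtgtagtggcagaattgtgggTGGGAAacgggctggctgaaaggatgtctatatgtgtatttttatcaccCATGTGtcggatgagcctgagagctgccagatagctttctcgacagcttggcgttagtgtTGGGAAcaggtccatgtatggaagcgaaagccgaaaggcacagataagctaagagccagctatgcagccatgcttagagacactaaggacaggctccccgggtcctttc
The Hrc window held 1 E-box 16 bases before the start and 1 TGGGAA 45 bases before it. The Slc8a1 window held 2 TGGGAA matches and 1 E-box, and the Ryr2 window held 2 E-boxes and no TGGGAA. Of all 32851 windows of that length, 66.2% hold an E-box and 21.6% hold TGGGAA, so these letters are frequent and their presence describes the windows only. In the other members with a window (Casq2, Jph2 and Pln) TGGGAA was found in 0.

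Library totals ran from 10103548 to 22157720 estimated reads, with Triple_Het replicate 2 deepest and no other library above 14774121. The targeted gene followed the labels. Mib1 was measured at 50.1 to 54.8 CPM in Mib1 mutant pools against 101 to 108 in Cre control pools, and at 57.9 to 74.1 in the triple heterozygote against 126 to 145 in WT. It fell in both, by 1.01 on the log2 scale (SE 0.09, adjusted p = 4.75e-05) and by 0.99 (SE 0.09, adjusted p = 0.000276), by the quasi-likelihood F test of edgeR, adjusted after Benjamini and Hochberg over all genes tested, which lies behind every edgeR adjusted p here. Asxl3 and Apcdd1, whose alleles are missense, passed it in no comparison. Mib1 was also lower in every Cre control pool than in any WT pool (log2 -0.37, SE 0.09, edgeR adjusted p = 0.15). All 12 sarcomere markers of cardiomyocytes were expressed; their summed level was 45788 to 57015 CPM in Mib1 mutant pools and 56572 to 62522 in Cre control pools. The summed level of 12 skeletal muscle markers was 11.7 to 42.9 CPM, highest in Triple_Het replicate 3, with 1 marker at 0 in every library. Replicates are pools of different ventricles, and since the labels do not say whether pools shared litters, p-values measure the spread between these pools.

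Sarcoplasmic reticulum genes spanned a wide range of levels, and in the 5 gene families compared the cardiac member was the leading isoform. Per kilobase of exonic length, the order of the mean levels over 12 libraries was Pln 802 CPM per kb, Atp2a2 523, Casq2 314, Jph2 77.8, Hrc 47.3, Slc8a1 27, Ryr2 21.7, Trdn 18.3, Asph 16.7 and Sln 2.33. Each of the first 4 was above the next gene in every library, with ranges that did not meet, whereas Hrc and Slc8a1, Slc8a1 and Ryr2, Ryr2 and Trdn, and Trdn and Asph overlapped. Exonic length here is the union of all annotated exons, which overstates the length of the transcripts present and so understates the level of genes with many alternative exons.

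**Figure D1:**
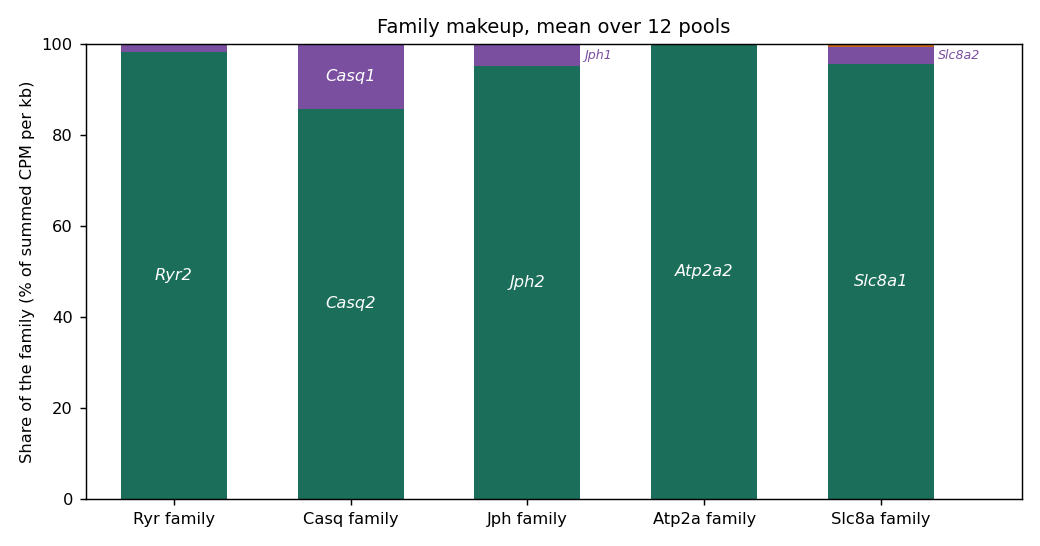
Share of each gene family's summed CPM per kb, in percent (vertical axis), for 5 families (horizontal axis), as the mean over 12 pools of ventricles with no error drawn. The cardiac isoforms Ryr2, Casq2, Jph2, Atp2a2 and Slc8a1 (green) fill most of each bar, with Casq2 at 85.7% the smallest of the 5.

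Within families, the cardiac isoform dominated by this per-length measure. Atp2a2 held 99.8% of the level of the SERCA pump genes on average, with the skeletal pump Atp2a1 at 0.01% and Atp2a3 at 0.165%. Ryr2 held 98.2% of the ryanodine receptor genes (97.2% to 98.9%) and Slc8a1 95.6% of the exchanger genes. The calsequestrins were the least one-sided: Casq2 held 85.7% on average and Casq1, the skeletal muscle isoform, 14.3%. The Casq1 share ranged from 16.1% to 21.2% over the Mib1 mutant pools and from 10.7% to 14.9% over the Cre control pools. These ranges did not overlap, although the triple heterozygote range of 11.1% to 17.2% overlapped both. Both terms of that share contributed, since Casq1 averaged 128 ± 37.0 CPM in the mutant and 86.7 ± 13.9 in the control (SD, n = 3 pools each) while Casq2 averaged 728 ± 92.1 and 842 ± 32.9; neither gene passed the test (edgeR adjusted p = 0.183 for Casq1 and 0.246 for Casq2). The summed level of the skeletal muscle markers was 12.1 to 20.1 CPM in the mutant and 11.7 to 16.2 in the control. Only 5 of these 12 markers had enough reads to be tested. Their part in the Casq1 values was not tested. Jph2 held 95.1% of the junctophilin genes, and Jph1, the form best known from skeletal muscle, held 3.41% to 3.8% in mutant pools against 4.64% to 5.37% in pools of the Cre control.

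The comparison of the Mib1 mutant with its Cre control sets a stop allele against a normal one, in embryos that all carry Mib1_flox and Cre. Cardiomyocytes that recombine keep 1 normal copy in the control and no normal copy in the mutant. One of the 10 members passed the test, against 1.5% of all genes tested (210 genes). Groups did not overlap for 5 members, with Casq2, Trdn, Hrc and Pln below the control and Asph above it, against 16.6% of all genes in either direction. The members' median log2 fold change was -0.03, with 5 of 10 negative, beside a median of 0.005 over all genes. Markers of other cell types were read in this comparison too, where 48.8% of all genes were negative. All 6 leukocyte markers were negative (median -0.63, 2 called; summed level 37.8 to 50.1 CPM in mutant pools, 60.8 to 80.3 in control pools) and all 7 erythroid markers were negative (median -0.23, 0 called; 3540 to 4804 and 4428 to 5098 CPM). All 7 fibroblast and matrix markers were positive (median 0.23, 0 called, 4679.9 to 5816 and 4272 to 4345 CPM). The 5 smooth muscle markers did not move together, with 4 positive, 1 negative and 1 called higher. Their log2 fold changes ran from -1.37 to 1.37 (median 0.24, summed level 1258 to 2052 and 1390 to 1484 CPM). The part of these cell types in the members' values was not tested.

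**Figure D2:**
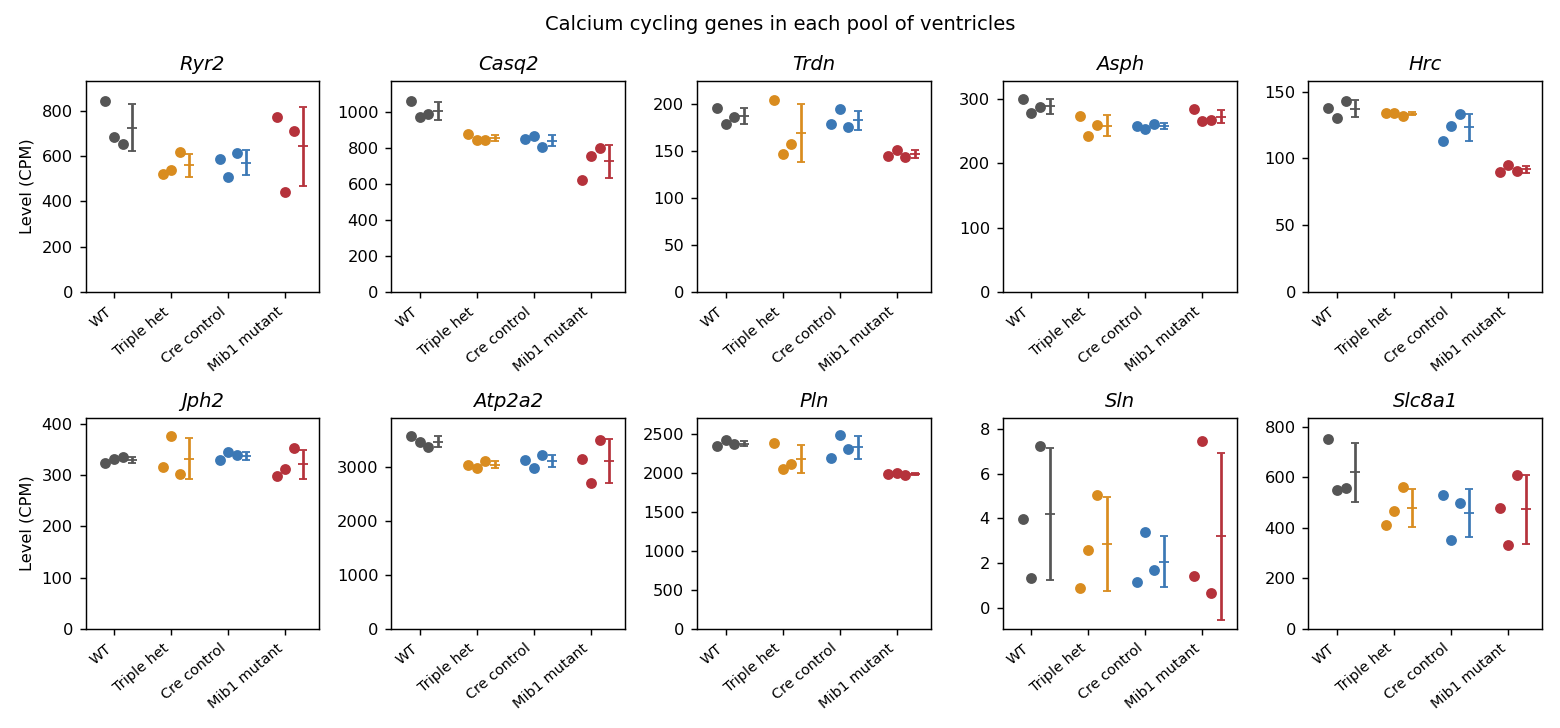
CPM (vertical axis, linear) of the 10 calcium cycling genes in each of the 12 libraries, by genotype (horizontal axis); points are pools, and bars give the mean and SD of 3 pools. The axes start at 0 except that of Sln. Hrc sits at 89.8 to 94.9 CPM in the Mib1 mutant, below every other library, whereas Ryr2, Slc8a1 and Atp2a2 in the mutant spread over the range of the other genotypes; the SD of Sln in the mutant exceeds its mean.

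Hrc (ENSMUSG00000038239, chr7:45335290-45338974, plus strand, GRCm38) measured 89.8, 94.9 and 90.5 CPM in the 3 Mib1 mutant pools and 113, 124 and 133 in the 3 Cre control pools. WT pools were at 138, 130.4 and 143 CPM and triple heterozygote pools at 134, 134 and 132. The mutant pools were thus the 3 lowest of the 12 libraries, with no overlap with any other genotype, and the means were 91.7 ± 2.76 against 123 ± 9.99 CPM (SD, n = 3 pools each). Hrc fell by 25.8%, or by 0.43 on the log2 scale (SE 0.07, edgeR adjusted p = 0.00486). In whole ventricles, fewer cardiomyocytes and less RNA per cardiomyocyte cannot be told apart. Sarcomere genes moved in the same direction, with all 12 negative, a median log2 fold change of -0.11 and 0 of them called. Their summed CPM in the mutant were 45788, 57015 and 54933, with replicate 1 the lowest, against 56572 to 62522 in the control. With libraries scaled on the sarcomere genes, Hrc was at -0.24 (edgeR adjusted p = 0.189); that scaling puts the median of all genes at 0.191 and shifts every gene alike, so that Hrc relative to the median is -0.43 by construction. A fit of only the 6 libraries compared also left Hrc short of the threshold, at -0.435 (edgeR adjusted p = 0.0514).

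Trdn (chr10:33080554-33476709, plus strand), which anchors calsequestrin to the release channel, measured 144, 151 and 143 CPM in the Mib1 mutant and 178, 194 and 175 in the Cre control. The groups did not overlap, and the log2 fold change was -0.32 (SE 0.10), short of the threshold (edgeR adjusted p = 0.146). Without the filter on low counts it was -0.329 with an edgeR adjusted p of 0.0414. Casq2 (chr3:102086415-102146514, plus strand), the main store buffer, measured 624, 759 and 800.3 CPM in the mutant and 854, 868 and 806 in the control. Mutant replicate 1 was the lowest of all libraries, and mutant replicate 3, at 800.3, came close to the lowest control pool at 806. Its log2 fold change was -0.21 (SE 0.08, edgeR adjusted p = 0.246). Hrc, Casq2 and Trdn thus had lower values in the 3 mutant pools than in any control pool, Asph, which also encodes a tether, had higher ones, and Hrc alone was called.

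The release channel itself did not follow that pattern. Ryr2 (chr13:11553102-12106945, minus strand) measured 773, 443 and 711 CPM in the Mib1 mutant and 587, 508 and 615 in the Cre control. Mutant replicate 2 was the lowest and replicate 1 the second highest of the 12 libraries, so the mutant spanned nearly the whole range of the study. The log2 fold change was 0.17 (SE 0.16, edgeR adjusted p = 0.695). Its estimated reads were not whole in any library, as can arise when reads match other genes as well and are divided among them. Which genes, if any, shared reads with Ryr2 was not tested.

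Asph (chr4:9448069-9669344, minus strand) encodes junctin, junctate and an aspartyl hydroxylase, which counts per gene do not separate. It measured 284, 266 and 268 CPM in the Mib1 mutant and 259, 254 and 262 in the Cre control, so that every mutant pool was above every control pool by a small margin (log2 0.08, SE 0.07, edgeR adjusted p = 0.655). The overlapping gene Clvs1, on the opposite strand, averaged 2.03 CPM. Jph2 (chr2:163336242-163397993, minus strand) measured 299, 313 and 354 CPM in the mutant and 330.4, 346 and 339 in the control. These groups overlapped, with a log2 fold change of -0.07 (SE 0.09, edgeR adjusted p = 0.774).

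**Figure D3:**
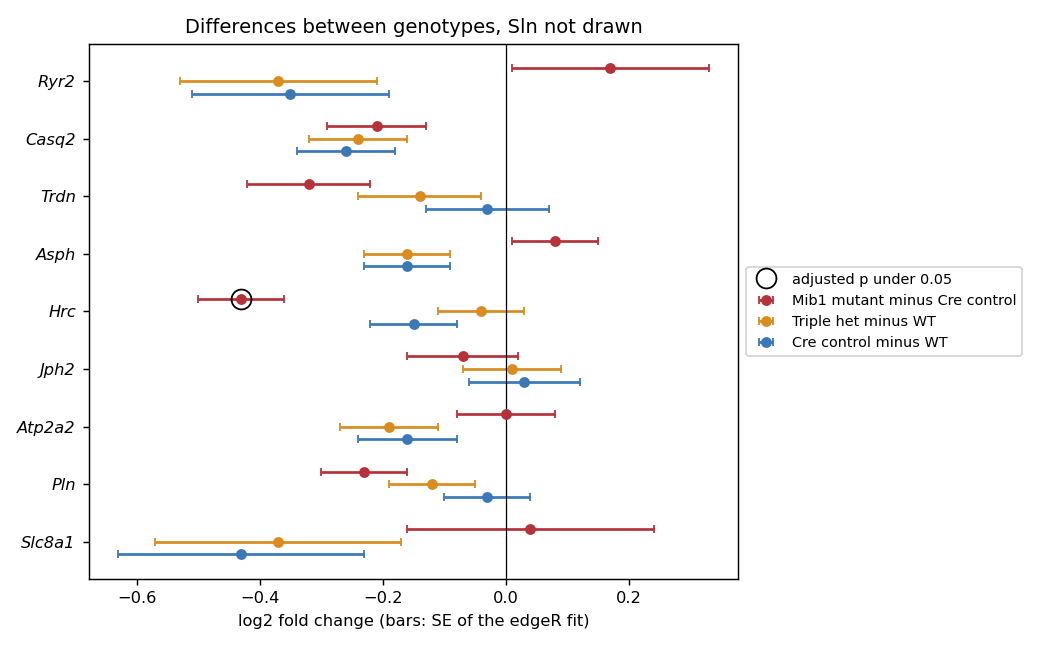
Log2 fold change (horizontal axis) of each calcium cycling gene in the 3 genotype comparisons, with bars of 1 SE from the edgeR fit; Sln, whose SE reaches 0.78, is not drawn. Hrc in the Mib1 mutant, at -0.43, is the one point circled for an edgeR adjusted p under 0.05.

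Among the uptake genes, the pump and its inhibitor had different values. Atp2a2 (chr5:122453513-122502225, minus strand) measured 3139, 2690.1 and 3498 CPM in the Mib1 mutant and 3115, 2980.2 and 3211 in the Cre control. The mutant pools lay on both sides of the control pools, and the log2 fold change was 0.00 (SE 0.08, edgeR adjusted p = 0.991). Pln (chr10:53337667-53345987, plus strand) measured 1983, 1994 and 1970.4 CPM in the mutant and 2189, 2478 and 2306 in the control. The mutant pools were nearly identical and all below the control, as well as below every WT and triple heterozygote pool. The log2 fold change of Pln was -0.23 (SE 0.07), which edgeR did not call (adjusted p = 0.106) and DESeq2 did (log2 -0.234, adjusted p = 0.0265). Pln lies within Cep85l, on the opposite strand, which averaged 7.21 CPM.

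The ratio of phospholamban to pump transcripts is of physiological interest because phospholamban lowers the pump's affinity for calcium. Pln to Atp2a2 was 0.632, 0.741 and 0.563 in the Mib1 mutant and 0.703, 0.832 and 0.718 in the Cre control, on the CPM scale. The groups overlapped, with a difference in log2 ratio of -0.22 (exact two-sided permutation test over libraries, p = 0.3). With 3 pools against 3 this test cannot go below 0.1. The difference was -0.328 without Mib1 mutant replicate 2 and -0.13 without replicate 3.

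Sln (chr9:53850164-53854560, plus strand), the pump inhibitor of atria and of some skeletal muscles, was near the lower end of what these libraries resolve. It measured 1.43, 7.46 and 0.69 CPM in the Mib1 mutant and 1.16, 3.37 and 1.69 in the Cre control. WT pools were at 3.99, 1.35 and 7.23 CPM and triple heterozygote pools at 0.907, 2.58 and 5.05. Levels differed several-fold within each genotype, from 8 to 88 reads a pool, and no genotype difference exceeded that spread (Mib1 mutant log2 0.61, SE 0.78, edgeR adjusted p = 0.789). The summed level of 8 genes listed as atrial markers was 1023 to 1743 CPM in the mutant and 1844 to 1905 in the Cre control. Nppa and Myl4 (742 CPM on average in the mutant, 774 in the control) made up most of that sum. The pools are of ventricles, and whether these reads came from atrial or ventricular cells was not tested. The markers did not move together: Nppa, Kcnj3 and Bmp10 were called lower, Dkk3 was called higher, and 5 of 8 were negative. Nppa averaged 318 CPM in the mutant and 846 in the control, while Myl7 was higher in every mutant pool than in any control pool. The part of these markers in the Sln values was not tested.

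Extrusion was represented by Slc8a1 (chr17:81373105-81738377, minus strand). It measured 478, 331 and 607 CPM in the Mib1 mutant and 529, 351 and 496 in the Cre control. Replicate 2 was the lowest pool of both genotypes, and the spread within each group exceeded the difference of the means (log2 0.04, SE 0.20, edgeR adjusted p = 0.956). The ratio of Atp2a2 to Slc8a1, uptake against extrusion, was 6.56, 8.13 and 5.76 in the mutant and 5.88, 8.49 and 6.47 in the control, which overlapped (log2 difference -0.02, exact permutation p = 0.8).

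The triple heterozygote was compared with WT to see what 1 copy of each of the 3 alleles changed. None of the 10 members passed the test by edgeR (4 had an unadjusted p under 0.05, as did 8.66% of all genes, and DESeq2 called 0), against 0.0215% of all genes tested (3 genes). Yet 9 of 10 members had a negative log2 fold change, with a median of -0.17, beside 50% of all genes and a median of 0 over all genes. Groups did not overlap for 4 members, all lower than WT, against 16.9% of genes in either direction. These were Ryr2, Casq2, Asph and Atp2a2. The same 4 genes were also lower without overlap in the Cre control, compared with the same WT pools. Their log2 fold changes there were -0.35, -0.26, -0.16 and -0.16, and the Cre control carries none of the 3 alleles.

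Ryr2 measured 522, 539.6 and 617 CPM in the triple heterozygote and 842, 683 and 651 in WT. WT replicate 1 stood well above the other WT pools, and the nearest pools of the 2 groups were 617 and 651 CPM (log2 -0.37, SE 0.16, edgeR adjusted p = 0.565). Casq2 measured 879, 845 and 848 CPM against 1065, 973 and 989 in WT, a clear gap with a log2 fold change of -0.24 (SE 0.08, edgeR adjusted p = 0.559). Atp2a2 measured 3033, 2973 and 3107 CPM against 3573, 3449 and 3365 (log2 -0.19, SE 0.08, edgeR adjusted p = 0.565). Asph measured 274, 242 and 259.9 CPM against 301, 278 and 288 (log2 -0.16, SE 0.07, edgeR adjusted p = 0.565). The fitted changes of these 4 genes ran from -22.9% for Ryr2 to -10.6% for Asph, and none passed the test adjusted over all genes.

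The remaining members overlapped with WT. Slc8a1 measured 409, 467 and 559.5 CPM in the triple heterozygote and 752, 548 and 555 in WT (log2 -0.37, SE 0.20, edgeR adjusted p = 0.606). Pln measured 2374, 2042 and 2112 CPM against 2338, 2412 and 2368 (log2 -0.12, edgeR adjusted p = 0.605), and Trdn 204, 146 and 157 against 195, 178 and 186 (log2 -0.14, edgeR adjusted p = 0.663). In both genes triple heterozygote replicate 1 stood with or above WT and the other 2 pools below it. Jph2, at 317, 378 and 303 CPM against 324, 332 and 336, and Hrc had log2 fold changes of 0.01 and -0.04. The ratio of Pln to Atp2a2 was 0.783, 0.687 and 0.68 in the triple heterozygote and 0.654, 0.699 and 0.704 in WT, which overlapped (log2 difference 0.06, exact permutation p = 0.6). The summed level of 7 erythroid markers was 7114 to 8333 CPM in the triple heterozygote and 4381 to 5153 in WT, and 2 of those genes were the other calls of this comparison besides Mib1; the part of red cell RNA in the members' values was not tested.

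Whether the 2 genotypes affected the members differently was tested as the difference between the 2 effects (Mib1 mutant minus its control, less triple heterozygote minus WT). No member passed by edgeR (3 had an unadjusted p under 0.05, as did 13.8% of all genes), against 0.516% of all genes (72 genes). Hrc, called in the Mib1 mutant and at -0.04 in the triple heterozygote, had a difference of -0.39 (SE 0.10, edgeR adjusted p = 0.117). DESeq2 called that difference, at -0.399 with an adjusted p of 0.0224. Asph lay above the control in all mutant pools and below WT in all triple heterozygote pools, and the difference was 0.24 (SE 0.09, edgeR adjusted p = 0.288). For Ryr2 it was 0.55 (SE 0.23, edgeR adjusted p = 0.311), and without Mib1 mutant replicate 2, the lowest Ryr2 library, it was 0.75 (edgeR adjusted p = 0.027). By edgeR, no member was called for this difference with any other library left out.

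The 2 control groups also had different values in several of these genes. In Cre control minus WT, which shares its WT pools with the triple heterozygote comparison and its Cre control pools with the Mib1 mutant comparison, edgeR called 0 members (5 had an unadjusted p under 0.05, as did 8.43% of all genes, and DESeq2 called 0), against 0.279% of all genes (39 genes). The members' median log2 fold change was -0.16, with 9 of 10 negative, beside 50.4% of all genes. Groups did not overlap for 5 members, all lower in the Cre control, against 19.1% of genes in either direction: Ryr2 at -0.35 (SE 0.16), Casq2 at -0.26 (SE 0.08), Asph at -0.16 (SE 0.07), Atp2a2 at -0.16 (SE 0.08) and Slc8a1 at -0.43 (SE 0.20). Their edgeR adjusted p-values ran from 0.355 for Casq2 to 0.607 for Atp2a2. Hrc was at -0.15 (SE 0.07, edgeR adjusted p = 0.592), with Cre control replicate 3 inside the WT range. WT had the highest mean of the 4 genotypes in 9 of the 10 members, all but Jph2. The flox allele, the Cre driver and the origin of the embryos cannot be told apart in this comparison.

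Part of the spread within genotypes was shared between members. Over the 12 libraries, after subtraction of each group's mean log2 CPM, Pearson's r was 0.86 between Ryr2 and Slc8a1, 0.86 between Atp2a2 and Slc8a1 and 0.84 between Ryr2 and Atp2a2. Trdn and Pln formed a separate pair with r = 0.82, and Asph and Jph2 ran in opposite directions with r = -0.69. These are descriptions over 12 libraries, which may share steps of their preparation. The union of annotated exons is 28790 bp for Ryr2, 18807 bp for Slc8a1 and 6081 bp for Atp2a2, beside a median of 4727 bp over the genes searched for likeness. Asph (16102 bp) and Trdn (9352 bp) are also longer than Atp2a2. Trdn correlated with Slc8a1 at -0.37 and with Ryr2 at -0.25, and Asph at 0.24 and 0.44. Long genes as a class moved with Ryr2 and Slc8a1 in several libraries: in Mib1 mutant replicate 2, the lowest library for Ryr2 and Slc8a1, the median deviation of 1287 genes of at least 10000 bp was -0.11 and that of 1568 genes of at most 2000 bp was 0.13. In Cre control replicate 2, the next lowest for Slc8a1, the same medians were -0.09 and 0.11, and in WT replicate 1, the highest for both genes, 0.07 and -0.06. The part of transcript length in the members' spread was not tested.

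**Figure D4:**
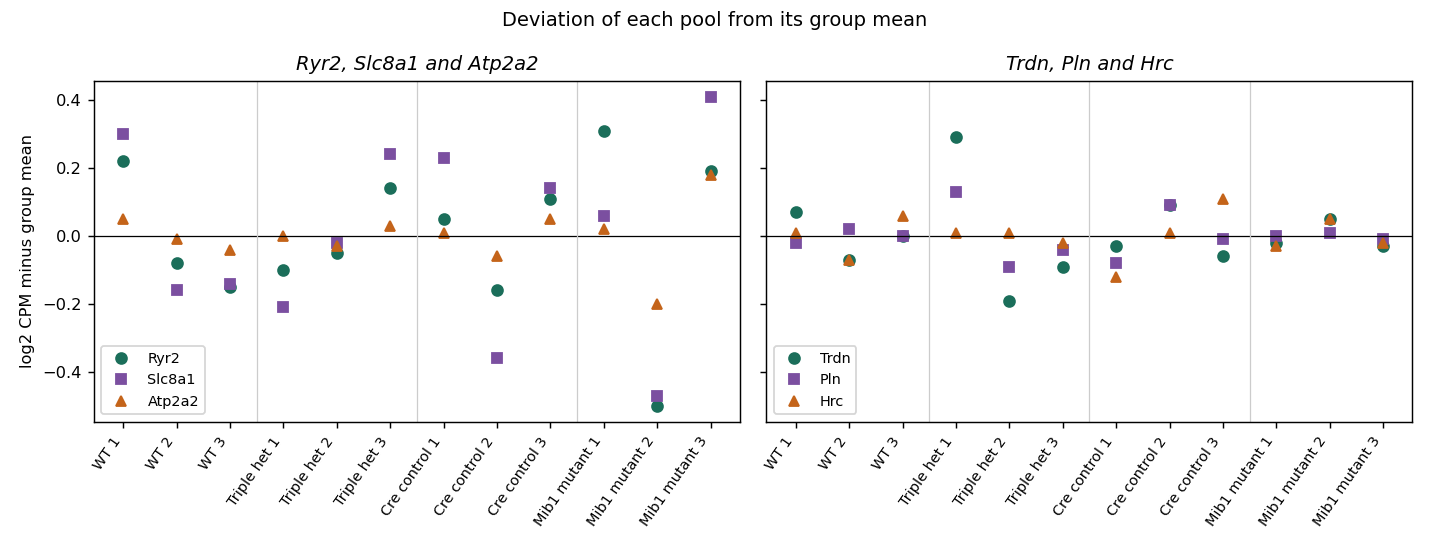
Log2 CPM minus the group mean (vertical axis) in each of the 12 pools (horizontal axis), for Ryr2, Slc8a1 and Atp2a2 (left) and Trdn, Pln and Hrc (right). Ryr2, Slc8a1 and Atp2a2 are low together in Mib1 mutant replicate 2 and Cre control replicate 2, and Hrc stays between -0.12 and 0.11.

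The genes most like each member by the same measure, among tested genes with a mean of at least 2 CPM, are given here as a description over 12 libraries. Ryr2 was followed most closely by the phosphatase gene Ptpn4 (r = 0.985), and Slc8a1 by Svil (0.993), which encodes the actin-binding supervillin, and the ubiquitin ligase gene Huwe1 (0.986). Atp2a2 was nearest to Ssh2 (0.966), Trdn to Csnk2a1 (0.975) and Cep63 (0.95), and Pln to Ankra2 (0.955) and Zbtb8os (0.947). Casq2 was nearest to the one-carbon enzyme gene Mthfd1 (0.968) and the replication factor gene Rfc4 (0.959), Asph to Tor3a (0.975) and Zfp983 (0.954), and Jph2 to Rcsd1 (0.981) and Rnf187 (0.95). Sln had Tmem120a (0.942) and Zfp446 (0.937). Hrc had the lowest best match, Carmil3 (0.883) and Efl1 (0.868). Each match was taken from the top of 11548 genes searched, which by itself favours high values.

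The wider pathway was read from lists. Among 28 other release channel and store genes, 25 were tested and 1 fell in the Mib1 mutant, where 1.5% of all genes were called. That gene was Jph1, a junctophilin like Jph2, which measured 13.9, 13.1 and 14.7 CPM in the mutant and 22, 19.8 and 21.2 in the Cre control. It fell by 33.8%, or by 0.60 on the log2 scale (SE 0.09, edgeR adjusted p = 0.00216), and was at -0.412 (edgeR adjusted p = 0.107) with libraries scaled on the sarcomere genes. In the triple heterozygote Jph1 was at -0.15 (SE 0.08, edgeR adjusted p = 0.61), and the difference between the 2 effects was -0.45 (SE 0.12, edgeR adjusted p = 0.146). The list's median log2 fold change in the mutant was 0.01, with 14 members positive and 11 negative.

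**Figure D5:**
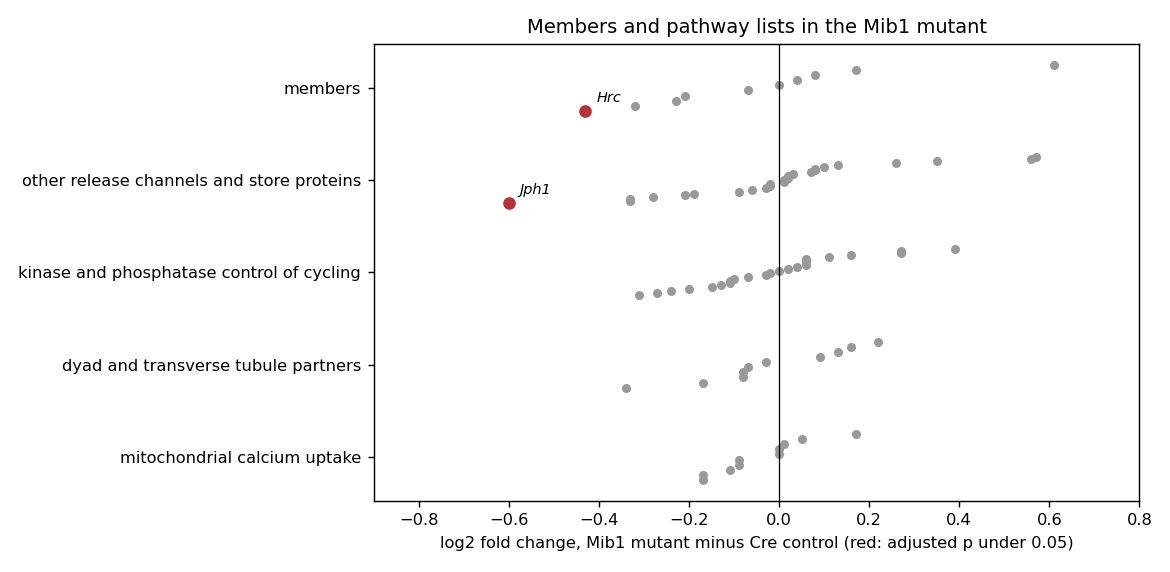
Log2 fold change (horizontal axis), Mib1 mutant minus Cre control, of the 10 calcium cycling genes and the tested genes of 4 related lists (rows), 1 point a gene, with the height within a row set only to separate points. Red points, which passed an edgeR adjusted p of 0.05, are Hrc at -0.43 and Jph1 at -0.60.

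In 3 further lists no gene passed by edgeR in any of the 4 comparisons. They were the kinases, phosphatases and their anchors that act on cycling (24 of 25 tested, 5 with an unadjusted p under 0.05 in the Mib1 mutant, where 14% of all genes had one), the dyad and transverse tubule partners (10 of 10 tested, 1) and the mitochondrial uptake genes (10 of 10 tested, 1). The smallest p of the first list belonged to Ppp1r1a, the inhibitor of protein phosphatase 1, for the difference between effects. Ppp1r1a averaged 23.3 ± 3.47 CPM in the mutant against 28.9 ± 3.04 in the Cre control and 32.5 ± 2.98 in the triple heterozygote against 25.4 ± 0.971 in WT (SD, n = 3 pools each), with a difference of -0.67 (SE 0.16, edgeR adjusted p = 0.0805). Cmya5, which encodes the dyad protein cardiomyopathy-associated 5, averaged 119 ± 11.9 CPM in the Cre control and 158 ± 19.9 in WT (log2 -0.40, SE 0.11, edgeR adjusted p = 0.224). Mcur1, a regulator of the mitochondrial uniporter, averaged 43.8 ± 1.5 CPM in the triple heterozygote and 50.7 ± 2.58 in WT (log2 -0.21, SE 0.08, edgeR adjusted p = 0.565).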

How the data were processed

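PolyA RNA of mouse embryonic ventricles was sequenced (directional libraries, 60-base single reads, per the labels' protocols). RSEM, cutadapt, bcl2fastq 2.20.0.422, limma and the build GRCm38 are named in the submitters' processing notes; for the aligner, annotation release and strand setting the entry is: not given in the sources used here. Per the file, the authors deposited RSEM expected counts (estimated reads per gene, not scaled for depth), of which 9.64% were not whole. All 12 columns were used and 0 left out. WT columns match the titles; columns called MUT name neither flox nor Cre and were taken as the triple heterozygote, an inference from names. Of 38293 identifiers, 36429 were in GENCODE M21, which gave symbols, positions and lengths on GRCm38. No replicate pair agreed within sampling noise (chi-square divided by its degrees of freedom was at least 2.06).

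After rounding, edgeR 4.0.16 (R 4.3.3) gave two-sided quasi-likelihood F tests (TMM, filterByExpr, 13964 genes, threshold 0.05), with 12 libraries in 1 fit of 4 groups (8 residual degrees of freedom, common biological coefficient of variation 0.0982). The SE is the absolute log2 fold change over the root of F. CPM uses TMM-scaled totals, and 1 read was worth 0.0452 to 0.0991 CPM. Ratios of genes used plain CPM (with 1 added as an alternative), and likeness used log2 CPM with 0.5 added. Named genes are the members, the 3 genes with alleles, from each pathway list the called genes (at most the 4 of smallest p) or else its gene of smallest p, and for each member its 2 nearest genes with a mean of at least 2 CPM, predicted genes and pseudogenes passed over. Casq1, and marker lists read as sums with some atrial markers named, were added for families and tissue checks. The members and lists were chosen with earlier results of these data known. Of 172 listed genes, 171 were in the table. Alternatives were DESeq2 1.42.0, limma 3.58.1 (voom), median-ratio size factors, no filter and only the 6 libraries compared. Others were a replicate block, the pools' sex mix as a covariate and each replicate left out. Scaling on sarcomere genes and leaving out the pools of 1 sex were added after seeing the data. The pools of 1 sex were replicate 1 of the Cre control and replicate 1 of the Mib1 mutant. Some genes that these rules take, and the list of other pumps and exchangers, are not reported here. The procedure was tested on simulated data.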

Additional observations from a re-analysis of the deposited data

How the results depend on the processing

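Of 1170 gene values recomputed under the alternatives, 1148 kept their side of the threshold, 5 lost their call, 17 gained one and 0 reversed. Hrc in the Mib1 mutant was called in 13 of 15 alternatives, at -0.487 to -0.371 (edgeR adjusted p = 0.00537 to 0.0413) with each replicate left out in turn. Counts of calls moved more. In the order Mib1 mutant, triple heterozygote, difference between effects and Cre control against WT, the counts of all genes called were 476, 54, 246 and 144 without the filter and 417, 28, 167 and 82 by DESeq2. With only the 6 libraries compared they were 93, 10 and 68 (no value for the difference). The replicate block gave 318 for the Mib1 mutant, 109 for the difference and 59 for Cre control against WT. The sex mix covariate gave 5 for the triple heterozygote. Scaling on sarcomere genes gave 0 for the triple heterozygote and 23 for the difference; leaving out the pools of 1 sex gave 110, 7 and 41 for the first 3 comparisons. Leaving out 1 replicate gave 116 to 415, 1 to 3, 28 to 233 and 23 to 42; 415 and 233 came without Mib1 mutant replicate 2, and the lowest of the 4 without Cre control replicate 3, any WT replicate, Triple_Het replicate 2 and WT replicate 1. More than 1.5-fold fewer were also called in the Mib1 mutant without Cre control replicate 2 (123), in Cre control against WT without WT replicate 2 (25), and in the difference without Cre control replicate 2 or 3 (43 and 38), Mib1 mutant replicate 3 (41), Triple_Het replicate 1 (33) or WT replicate 1, 2 or 3 (36, 31 and 32). Members called in the Mib1 mutant were 2 without the filter and 2 by DESeq2, 0 with only the 6 libraries compared and 0 with sarcomere scaling, and 1 to 1 with a replicate left out; for the difference they were 1 by DESeq2 and 0 to 1 with a replicate left out. They stayed at 0 to 0 in the triple heterozygote and in Cre control against WT. With a replicate left out, the log2 difference in the ratio of Pln to Atp2a2 ranged from -0.328 to -0.13, from -0.004 to 0.097 (triple heterozygote) and from 0.052 to 0.173 (Cre control against WT), and that of Atp2a2 to Slc8a1 from -0.158 to 0.13, 0.051 to 0.279 and 0.124 to 0.389. The cause of these shifts was not tested. Same-numbered replicates correlated at 0.165, 0.318 and 0.0921 (Mib1 mutant and Cre control), 0.11, 0.0365 and -0.156 (triple heterozygote and WT) and 0.126, 0.126 and -0.11 (Cre control and WT). Other-numbered Cre control pools correlated with Mib1 mutant replicate 1 at -0.132 to -0.0361 and with replicate 2 at -0.291 to -0.0414. For Mib1 mutant replicate 3 the range was -0.243 to 0.171. Pairing by number in that comparison was thus not settled, and the main fit took pools as unpaired. Under the replicate block the call of Hrc held.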
